A study of Mus musculus with 98 samples.

Results

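The culture period from day 9 to day 21 in vitro was followed here in primary mouse hippocampal neurons that carried a virus raising the enzyme ACSS2 and that received phosphate-buffered saline (PBS) only. The libraries were chosen by their titles and column names and not by any measured value. They are 6 of the 98 RNA sequencing samples of the series, 3 at each day. The neurons came from embryonic hippocampus of CD1 mice and were grown in Neurobasal medium with B27. All cultures received a PhP.eB virus on day 5 for 48 h, either the one that raises ACSS2 (called upACSS2) or the vector alone, and a PBS wash on day 7. After the wash they received either the tau preparation labelled hAD-tau or PBS, and RNA was taken on day 9 or day 21 without stimulation. The groups used are upACSS2 with PBS at day 9 and at day 21 and, for comparison, vector with PBS at both days, each with 3 libraries. In addition, 12 libraries of the same design given tau (3 for each virus and day) served as a second set. The treatment entry of the upACSS2 PBS samples reads as the tau treatment, while their titles and column names say PBS. The titles were followed. Nothing in the labels says whether the 3 libraries of a group came from separate cultures, so the p-values measure the spread between these libraries, which may be technical. No batch is labelled, and the day of culture cannot be told apart from the batch in which its libraries were made.

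ACSS2 makes acetyl-CoA from acetate in the nucleus and cytosol. Acetyl-CoA is the donor for histone acetylation and the starting material of fatty acids and sterols, and nuclear ACSS2 is known for a part in histone acetylation at neuronal genes and in memory. Embryonic hippocampal neurons in culture extend axons and dendrites in the first days and then form synapses, change the subunits of their receptors and channels and take on their adult transmitter programs. A culture of this kind also holds dividing glial precursors that go on to make astrocytes and oligodendrocytes while the neurons mature. In such bulk samples fewer cells of a type and less RNA per cell cannot be told apart.

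Acss2 itself (chromosome 2, 155518043 to 155562743, mm10) was first read in every library, since it checks the labels. Levels are given as CPM, the count of a gene relative to the total of its library after scaling for library composition. With upACSS2 its level was 1489, 1721 and 1956 CPM on day 9 in replicates 1, 2 and 3, and 2370, 2147 and 4141 CPM on day 21. With vector it was 51.0, 41.0 and 45.6 CPM on day 9 and 56.3, 44.7 and 48.1 CPM on day 21. All 6 upACSS2 libraries were thus far above all 6 vector libraries. The counts do not separate transcripts of the virus from those of the mouse gene. Within upACSS2 the mean was 1722 ± 233 CPM (SD, n = 3) on day 9 and 2886 ± 1092 CPM (SD, n = 3) on day 21, and the days did not overlap. The log2 difference between the days was 0.74 (SE 0.21; adjusted p = 0.0123 in edgeR, 0.0108 with a separate spread for each day). For this single gene an exact two-sided permutation test over the libraries gave p = 0.1, the smallest that 3 against 3 libraries allow. Replicate 3 of day 21 was the highest, and without it the log2 difference was 0.39 (adjusted p = 0.0397). Without replicate 1 of day 9, the lowest of its day, it was 0.65 and no longer passed (adjusted p = 0.0553). With vector the log2 difference was 0.11 (adjusted p = 0.687). The upACSS2 difference exceeded the vector difference by 0.63 (95% interval −0.03 to 1.30; adjusted p = 0.549), which did not pass the test. Acss2 RNA was therefore raised on both days.

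The 12 PBS libraries held 15941077 to 33960722 counts each. Between-library variation was small on day 9 and larger on day 21. edgeR's biological coefficient of variation, the spread of a gene's true level between libraries of a group relative to its mean, was 0.0365 for the 3 upACSS2 libraries of day 9 and 0.169 for the 3 of day 21. For vector the same values were 0.0424 and 0.248. Ribosomal precursor RNA (Rn45s) took 0.217 to 0.474% of the counts on day 9, 0.619 to 7.93% in upACSS2 day 21 and 0.561 to 10.98% in vector day 21. Among the day 21 libraries, upACSS2 replicate 2 stood apart in cell cycle genes, upACSS2 replicate 3 in sterol genes and vector replicate 3 in astrocyte genes, as given with each group below.

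Of 25239 genes in the table, 14559 had enough counts to be tested. Between day 9 and day 21 with upACSS2, 7253 genes passed an adjusted p of 0.05 in edgeR, 3687 higher on day 21 (25.3% of the genes tested) and 3566 lower (24.5%). When each day was given its own spread, 7203 genes passed (49.5% in either direction). Both tests were passed by 6985 genes, 3532 higher and 3453 lower by the edgeR estimate. At least a 2-fold difference was seen for 1531 of the higher and 1063 of the lower genes that passed, and at least a 4-fold difference for 428 and 230. The median log2 difference over all genes tested was 0.02, and every gene list below is to be read against this median and against the shares of 25.3% and 24.5%. The split of higher and lower calls depends on scaling. With total counts as the only scaling, 4875 genes were higher and 2630 lower (65.0% higher instead of 50.8%), and the median moved to 0.16. The lists that follow hold 384 genes in 26 groups.

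Genes of young neurons and growing axons fell together. Of 22 genes on this list, 19 fell, 1 rose and 2 did not pass, and the median log2 difference was −1.90. Dpysl5 (chromosome 5, 30711564 to 30799369), a collapsin response mediator protein of growth cones, read 1593, 1695 and 1616 CPM on day 9 and 138, 127 and 130 CPM on day 21. The 2 days were about an order of magnitude apart with little spread inside either (log2 difference −3.63, SE 0.14; adjusted p = 9.95e-09). Its relative Dpysl3 went from 3702, 3750 and 3723 CPM to 473, 424 and 428 CPM (−3.08, SE 0.10). Dcx, the doublecortin that binds microtubules in migrating neurons, read 989, 920 and 994 CPM on day 9 and 159, 109 and 129 CPM on day 21 (−2.87, SE 0.19; adjusted p = 4.45e-07). Cd24a, a surface protein of young neurons, fell by 2.96 on the log2 scale, and Stmn1, which destabilises microtubules, fell by 2.65. Gap43, a protein of growing axon tips, fell by 2.19. The member that rose was Sox4, a transcription factor of progenitors and young neurons, at 140, 123 and 111 CPM on day 9 and 346, 226 and 269 CPM on day 21 (log2 difference 1.17; adjusted p = 0.000271). With vector the same counts were 19 lower and 1 higher, with a median of −1.80.

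Microtubule-associated genes followed. None of the 11 rose and 8 fell, with a median of −0.63. Mapt, which codes for tau (chromosome 11, 104229409 to 104332090), read 2656, 2778 and 2674 CPM on day 9 and 443, 461 and 463 CPM on day 21, with no overlap and a narrow spread at both days (−2.57, SE 0.09; adjusted p = 5.07e-09). Map1b, a protein of growing axons, fell from 4560, 4598 and 5024 CPM to 1371, 1096 and 1508 CPM (−1.83, SE 0.16). Map6, which stabilises microtubules, fell by 1.67 on the log2 scale. Map2, the dendritic protein, went from 2784, 2667 and 2805 CPM to 1383, 1118 and 1384 CPM (−1.09, SE 0.10). Gsk3b, a kinase that phosphorylates tau, fell by 0.87.

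**Figure D1:**
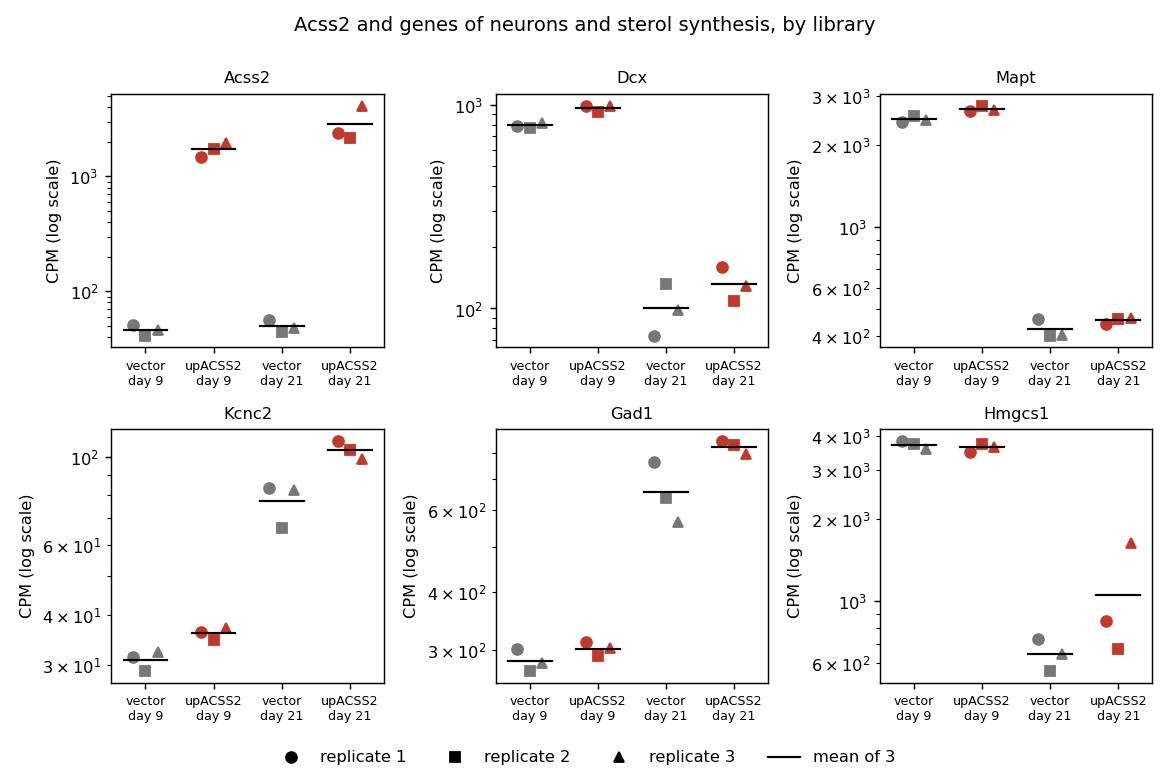
Levels of Acss2, Dcx, Mapt, Kcnc2, Gad1 and Hmgcs1 in each of the 12 PBS libraries, in CPM on a log axis, for vector (grey) and upACSS2 (red) at day 9 and day 21, with 1 symbol per replicate and a line at the mean of 3. Mapt sits between 2656 and 2778 CPM in the 3 upACSS2 libraries of day 9 and between 443 and 463 CPM in those of day 21.

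General neuronal identity genes were mixed, with 3 higher, 5 lower and 4 not passing of 12 (median 0.08). Tubb3, the tubulin of neurons, read 1643, 1680 and 1624 CPM on day 9 and 371, 464 and 358 CPM on day 21 (−2.05, SE 0.13). Elavl3, an RNA-binding protein of neurons, fell by 1.10. Nefh, the heavy neurofilament subunit of mature axons, moved the other way, from 27.3, 25.3 and 28.4 CPM to 60.7, 68.2 and 62.3 CPM (1.24, SE 0.15; adjusted p = 4.08e-05). With vector Nefh read 34.7, 30.1 and 28.3 CPM on day 9 and 49.3, 30.5 and 35.4 CPM on day 21 (0.30; adjusted p = 0.107). In PBS the vector days overlapped while the upACSS2 days were well apart. The difference between the viruses was 0.94 (unadjusted p = 0.000829) and did not pass after adjustment. In tau the vector days did not overlap, at 26.3, 23.0 and 29.5 CPM on day 9 and 45.9, 34.0 and 44.9 CPM on day 21. The difference between the viruses there was 0.50 (edgeR unadjusted p = 0.0117) and did not pass after adjustment either. Snap25, of the vesicle fusion machinery, rose by 0.75 (SE 0.18), with its highest value of 1338 CPM in replicate 3 of day 21.

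Glutamate and GABA receptor subunits changed one by one rather than as lists. Of 7 NMDA receptor subunits, 1 rose and 2 fell. Grin2b, the subunit that prevails early in development, read 607, 578 and 759 CPM on day 9 and 270, 250 and 425 CPM on day 21 (−1.04, SE 0.21; adjusted p = 0.00174). Grin2a, the subunit that prevails in the adult, read 110, 115 and 142 CPM on day 9 and 141, 117 and 211 CPM on day 21. Its days overlapped and it did not pass (0.35, SE 0.23; adjusted p = 0.220). Grin3a rose by 1.30 and Grin2d fell by 0.79. Among 12 AMPA and kainate receptor genes, 5 rose and 1 fell (median 0.22). Cacng3, an auxiliary subunit that brings AMPA receptors to the surface, rose by 1.37 (SE 0.17), Grik3 by 0.80, Gria4 by 0.63 and Gria3 by 0.54, while Grik4 fell by 0.64.

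The embryonic GABA-A receptor alpha subunit gene Gabra2 went from 798, 784 and 820 CPM to 327, 308 and 496 CPM (−1.09, SE 0.17; adjusted p = 0.000253). The days did not overlap. Gabrg1 rose by 1.30 and Gabrg3 by 0.80, and Gabra5 fell by 0.70. Over the 12 GABA-A subunits, 4 rose and 3 fell (median 0.03). Of the 2 chloride transporters, Slc12a2, which loads neurons with chloride, rose by 0.40 (SE 0.13; adjusted p = 0.0204). It read 39.8, 40.8 and 41.6 CPM on day 9 and 64.3, 48.2 and 49.1 CPM on day 21, with replicate 1 the highest. With vector the days overlapped, at 42.5, 40.7 and 40.3 CPM and 34.9, 43.3 and 48.1 CPM. They also overlapped with upACSS2 in tau, at 43.1, 42.6 and 42.2 CPM and 39.4, 47.1 and 44.0 CPM. Slc12a5, which extrudes chloride, read 376, 380 and 385 CPM on day 9 and 264, 271 and 337 CPM on day 21 and did not pass (−0.39, SE 0.20; adjusted p = 0.119).

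Vesicle and release genes held 5 higher, 6 lower and 12 not passing of 23 (median −0.02). The vesicular glutamate transporter Slc17a6 fell from 55.9, 69.1 and 59.0 CPM to 6.00, 6.86 and 5.57 CPM (−3.31, SE 0.20; adjusted p = 2.49e-07). Its relative Slc17a7, the transporter of adult cortex and hippocampus, read 850, 804 and 866 CPM on day 9 and 997, 1180 and 1597 CPM on day 21 and missed the threshold (0.58; adjusted p = 0.0767). Vamp1, a vesicle fusion protein, rose from 15.6, 15.6 and 15.9 CPM to 57.7, 84.9 and 60.7 CPM (2.11, SE 0.24). Syn3, a synapsin of early development, fell by 1.58 and the syntaxin Stx1a by 1.47. Of 23 postsynaptic scaffold and adhesion genes, 3 rose and 9 fell (median −0.09, which becomes 0.05 under total-count scaling). Homer2 fell by 1.20 (SE 0.07) and Shank1 by 1.03, whereas Lrrtm4 rose by 0.98 and Dlg1 by 0.83.

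Channel genes rose at close to the share of all genes. Of 18 potassium and HCN channel genes 5 rose and none fell (median 0.20), and of 8 sodium channel genes 3 rose and 2 fell (median 0.22). Kcnc2, a Kv3 channel of fast-spiking cells, read 36.2, 34.6 and 37.1 CPM on day 9 and 110, 104 and 98.5 CPM on day 21 (1.53, SE 0.10; adjusted p = 2.77e-07). Kcnj9 rose by 1.37 and Kcna2 by 0.88. Scn1a, the sodium channel of adult neurons, went from 33.7, 25.3 and 32.7 CPM to 70.2, 62.9 and 84.2 CPM (1.24, SE 0.18). Scn3a, which prevails in embryonic brain, fell from 126, 116 and 119 CPM to 76.9, 74.7 and 82.2 CPM (−0.62, SE 0.10). Scn2b rose by 1.61 and Scn3b fell by 1.24.

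Interneuron genes rose for the most part, 9 of 14 higher and 3 lower (median 0.91). The vector counts were 10 higher and 2 lower (median 0.92). Gad1, which makes GABA, read 311, 291 and 302 CPM on day 9 and 848, 830 and 795 CPM on day 21 (1.45, SE 0.11; adjusted p = 8.90e-07). Calb1, a calcium-binding protein, rose by 1.93 (SE 0.14), and the neuropeptide gene Npy rose from 4.62, 3.65 and 5.34 CPM to 25.5, 23.2 and 44.2 CPM (2.76, SE 0.32). Pvalb, the parvalbumin of fast-spiking interneurons, had 2 counts over the 3 libraries of day 9 and 146 over those of day 21. This is a ratio of 62.3 (95% counting interval 16.95 to 519.6, which covers counting error only). The 3 members that fell were Calb2 by 1.05, Reln by 0.68 and Dlx1 by 0.61.

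The perineuronal net is an extracellular coat that forms around maturing neurons. Of its 10 tested genes 6 rose and 3 fell (median 1.26). Tnr, the tenascin that cross-links the net, read 37.9, 32.5 and 42.0 CPM on day 9 and 322, 131 and 257 CPM on day 21, with replicate 2 the lowest (2.66, SE 0.27; adjusted p = 1.01e-05). Hapln4, a link protein, rose by 3.39 (SE 0.48), Has2 by 2.04, Bcan by 1.45 and Vcan by 1.37. Acan, the core proteoglycan of mature nets, fell by 1.26. Tnr, Bcan and Vcan are also made by oligodendrocyte precursors, whose lineage markers rose in the same libraries (13 of 15, with a summed level of 279 to 305 CPM on day 9 and 2131 to 4036 CPM on day 21), and the part of those cells in this result was not tested. With vector 6 of the 10 net genes rose and 4 fell (median 0.62). The difference between the viruses was positive for 9 of the 10, and none passed after adjustment. Hapln4 on day 21 read 99.3, 36.8 and 34.4 CPM with vector and 21.95, 15.1 and 35.2 CPM with upACSS2.

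Activity-regulated genes are switched on by calcium entry during firing. Of 18 such genes 10 rose and 2 fell (median 0.81). Arc, which acts in receptor trafficking, went from 4.79, 5.37 and 8.01 CPM to 42.0, 22.1 and 36.6 CPM (2.47, SE 0.33; adjusted p = 7.20e-05). Egr1 read 22.9, 19.2 and 26.3 CPM on day 9 and 83.4, 170 and 67.2 CPM on day 21, with replicate 2 the highest (2.23, SE 0.36). Fos rose by 1.58 and Nr4a1 by 1.57, and Nr4a3 fell by 1.66. With vector 7 of the 18 rose and 3 fell (median 0.35). Between the viruses the difference was positive for 16 of the 18 (for 6986 of the 14559 genes tested), with 2 at an unadjusted p under 0.05 and none after adjustment. General neuronal lists leaned the same way, with 21 of 23 presynaptic, 19 of 23 postsynaptic, 16 of 18 potassium and HCN channel and 11 of 12 neuron identity genes positive. On day 21 with vector the activity genes summed to 1018, 666 and 651 CPM and the neuron identity genes to 7683, 5138 and 4808 CPM, so that replicate 1 was the highest in both. The part of neuronal content in this result was not tested.

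Every one of the 19 genes of cholesterol synthesis fell, with a median of −1.48. The pathway turns acetyl-CoA into sterols and is switched on by the transcription factor SREBP2 when sterols run low. Hmgcs1, which joins acetyl-CoA units at the entry of the pathway (chromosome 13, 119690351 to 119708260), read 3493, 3744 and 3651 CPM on day 9. On day 21 it read 848, 670 and 1636 CPM (−1.79, SE 0.26; adjusted p = 0.000136). The kinase Mvk fell from 113, 124 and 121 CPM to 27.1, 24.0 and 38.8 CPM (adjusted p = 1.22e-06). Mvd, a later enzyme of the pathway, fell by 2.38 (SE 0.26), the prenyl synthase Fdps by 2.14 and the squalene epoxidase Sqle by 1.71. In each of these 5 genes replicate 3 was the highest of the day 21 libraries, and no day 21 value reached a day 9 value. The summed level of the 19 genes was 8484, 9118 and 9284 CPM on day 9 and 2485, 2077 and 4475 CPM on day 21. With vector all 19 fell as well, with a median of −1.94 and sums of 2363, 1725 and 2023 CPM on day 21. Against vector the difference was positive for 19 of 19 genes (median 0.39, against −0.01 over all genes), 3 of them at an unadjusted p under 0.05 and none after adjustment. Without upACSS2 replicate 3 of day 21 the upACSS2 median was −1.91, the median difference between the viruses 0.21, and 15 of 19 were positive.

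Because these genes moved together, the 250 bases before the annotated starts were read from RefSeq sequences (GRCm38.p6), where 13 of the 19 genes had an entry and these gave 16 windows. Shown are Hmgcs1, the entry enzyme, and Mvd, which had the largest difference in the list. Capitals mark the sterol element core CACCCCAC and the CCAAT box (which reads ATTGG on the other strand), each searched on both strands. The 2 motifs share no bases in these windows.
Hmgcs1, chr13:119690101-119690350, plus strand: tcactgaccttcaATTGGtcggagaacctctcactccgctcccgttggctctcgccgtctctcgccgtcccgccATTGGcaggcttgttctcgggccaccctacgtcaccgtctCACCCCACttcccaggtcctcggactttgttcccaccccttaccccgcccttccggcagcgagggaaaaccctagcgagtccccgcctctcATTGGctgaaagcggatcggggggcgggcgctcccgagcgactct
Mvd, chr8:122443423-122443672, minus strand: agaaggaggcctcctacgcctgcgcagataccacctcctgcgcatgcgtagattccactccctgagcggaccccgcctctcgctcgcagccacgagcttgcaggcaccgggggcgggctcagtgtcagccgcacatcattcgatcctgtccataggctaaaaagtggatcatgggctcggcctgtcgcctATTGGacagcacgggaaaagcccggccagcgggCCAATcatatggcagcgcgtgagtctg
CACCCCAC was found in 1 of the 16 windows, that of Hmgcs1, and in 2.58% of all 32851 windows of this length in the table. CCAAT was found in 13 of the 16 windows (81.2%), 1 for each of the 13 genes, and in 33.8% of all windows. A match of letters is a description and not evidence of binding.

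**Figure D2:**
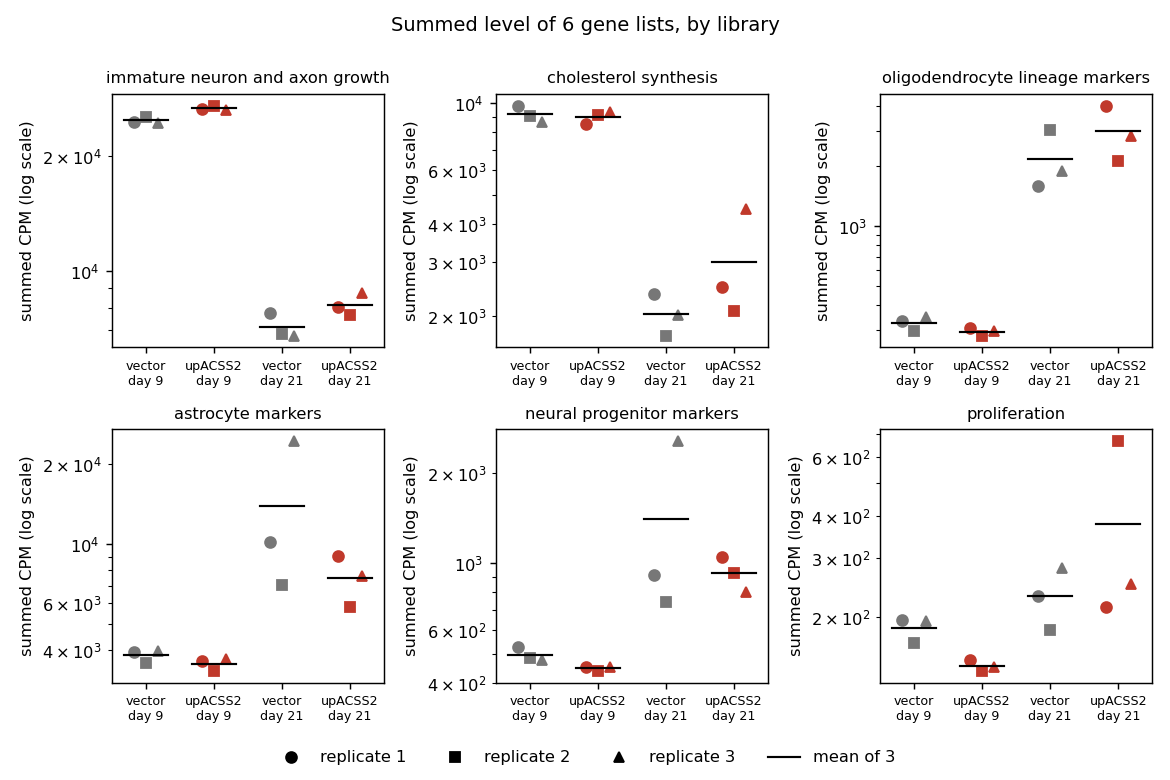
Summed level of 6 gene lists in each of the 12 PBS libraries, in CPM on a log axis, for vector (grey) and upACSS2 (red), with 1 symbol per replicate and a line at the mean of 3. The cholesterol genes sum to between 8484 and 9284 CPM in upACSS2 day 9 and to between 2077 and 4475 CPM in upACSS2 day 21.

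Among 25 genes of acetyl-CoA supply and histone acetylation, which include Acss2 itself, 4 rose and 6 fell (median −0.12). Acss1, the mitochondrial relative of ACSS2, rose from 10.9, 9.48 and 11.6 CPM to 44.8, 38.4 and 34.0 CPM (1.87, SE 0.31; adjusted p = 0.000355). Acly, which makes acetyl-CoA from citrate and so works beside ACSS2, fell from 745, 805 and 780 CPM to 217, 204 and 290 CPM (−1.71, SE 0.13; adjusted p = 1.18e-06). The citrate carrier Slc25a1 fell by 1.44 and Acat2, of sterol precursor supply, by 1.62. With vector Acly fell by 1.98 and Slc25a1 by 1.35. The histone acetyltransferase genes Ep300 (−0.03, SE 0.10) and Crebbp (−0.23, SE 0.11) did not pass, and Kat2a fell by 0.43. Of 15 fatty acid genes 4 rose and 7 fell (median −0.41). Fasn, the fatty acid synthase, went from 1218, 1245 and 1336 CPM to 391.5, 347 and 580 CPM (−1.53, SE 0.22), and Acaca, which makes its substrate, fell by 1.19. The elongases Elovl7 and Elovl1 rose by 2.40 and 1.75, and Elovl2 fell by 1.36.

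Glycolysis and lactate transport genes rose or did not pass, 12 higher and none lower of 20 (median 0.49). Without upACSS2 replicate 3 of day 21 the count was 7 higher and 1 lower (median 0.40). Eno2, the enolase of neurons, rose from 336, 331 and 350 CPM to 566, 725 and 766 CPM (1.02, SE 0.16; adjusted p = 0.000302), and Aldoa rose by 0.91. Slc2a1, a glucose transporter, read 11.7, 11.1 and 13.1 CPM on day 9 and 32.1, 23.8 and 64.7 CPM on day 21 (1.75, SE 0.36). Slc16a3, a lactate exporter, read 2.65, 0.938 and 12.3 CPM on day 21 and between 0.336 and 1.20 CPM on day 9. Its days overlapped and most of its difference lay in replicate 3 (2.81, SE 1.00; adjusted p = 0.0336). With vector 6 of the 20 rose and 2 fell.

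Most of the largest rises were in the oligodendrocyte lineage, the cells that myelinate axons. Of its 15 markers 13 rose and 1 fell, with a median of 4.35 that is the same with Gpr17 set at its lower bound. Precursor genes came up evenly. Pdgfra, the growth factor receptor that marks precursors (chromosome 5, 75151322 to 75198206), read 2.10, 1.99 and 1.89 CPM on day 9 and 421, 404 and 405 CPM on day 21 (7.68, SE 0.35; adjusted p = 3.56e-08). Olig2, a transcription factor of the lineage, read 21.3, 17.96 and 18.9 CPM on day 9 and 314, 313 and 226 CPM on day 21 (3.87, SE 0.21). Cspg4, the NG2 proteoglycan, rose by 4.35 (SE 0.23) and Olig1 by 1.67 (SE 0.14). Sox10, needed for the lineage to differentiate, went from 0.168, 0.0663 and 0.105 CPM to 117, 78.9 and 74.2 CPM (9.48, SE 0.40; adjusted p = 1.86e-08).

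Later stages varied more between the day 21 libraries. Gpr17, which marks cells committed to differentiate, had no counts on day 9 and 563, 148 and 354 CPM on day 21, at least 6923-fold higher when day 9 is set to 3 counts over its 3 libraries. Mbp, a myelin protein, read 8.61, 9.15 and 10.6 CPM on day 9 and 244, 42.2 and 235 CPM on day 21 (4.20, SE 0.51; adjusted p = 3.95e-05). Mag rose from 2 counts over day 9 to 1500 over day 21, a ratio of 640 (95% counting interval 177 to 5293). Replicate 2 of day 21 was the lowest in each of these later genes by a wide margin, whereas its precursor genes were near or above those of the other 2 libraries. Summed over 5 precursor genes the day 21 level was 1638, 1705 and 1438 CPM, over 3 genes of committed cells 1153, 239 and 634 CPM, and over 7 myelin genes 1245, 187 and 777 CPM. This division of the list into stages was made after the values were seen. Mog, a late surface protein of myelin, fell from 3.74, 4.44 and 4.14 CPM to 0.857, 0.512 and 0.502 CPM (−2.69, SE 0.36), and Mobp did not pass. With vector 14 of the 15 rose and 1 fell, with a median of 4.93 (3.44 without vector replicate 3 of day 21). Rn45s took 7.93, 1.89 and 0.619% of the counts in replicates 1, 2 and 3 of upACSS2 day 21. In vector day 21 it took 0.887, 10.98 and 0.561%. Gpr17 and Bcas1 were highest where Rn45s was highest, at 563 and 473 CPM in upACSS2 replicate 1. In vector replicate 2 they read 440 and 334 CPM. Mag and Mbp with vector were instead highest in replicate 3. The part of Rn45s content in these levels was not tested.

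**Figure D3:**
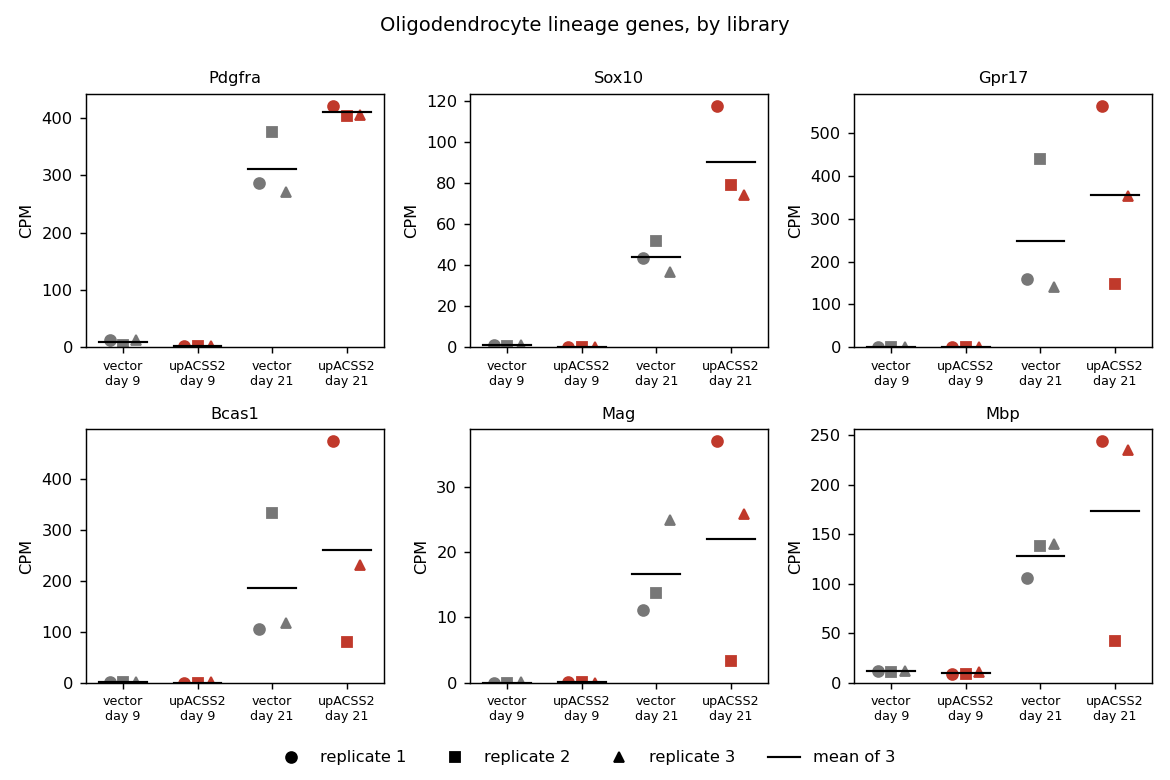
Levels of Pdgfra, Sox10, Gpr17, Bcas1, Mag and Mbp in each of the 12 PBS libraries, in CPM on linear axes from 0, for vector (grey) and upACSS2 (red), with 1 symbol per replicate and a line at the mean of 3. Pdgfra lies between 404 and 421 CPM in the 3 upACSS2 libraries of day 21, while Mbp runs from 42.2 to 244 CPM in the same libraries.

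Astrocyte markers rose by less. With upACSS2 11 of 18 rose and none fell (median 1.12). Gfap, the intermediate filament of astrocytes (chromosome 11, 102887336 to 102897200), read 359, 337 and 369 CPM on day 9 and 3380, 1574 and 2327 CPM on day 21 (2.77, SE 0.52; adjusted p = 0.000898). The water channel gene Aqp4 went from 62.7, 50.5 and 67.4 CPM to 366, 108 and 325 CPM (2.14, SE 0.46), and S100b rose by 2.01 and Aldoc by 1.81. Replicate 2 was again the lowest at day 21. With vector 15 of 18 rose (median 1.75). Vector Gfap on day 21 was 4688, 2156 and 13760 CPM, and the sum of the 18 genes was 10190, 7015 and 24480 CPM against 9069, 5801 and 7634 CPM with upACSS2. The difference between the viruses was negative for 17 of 18 genes (median −0.55), 3 of them at an unadjusted p under 0.05 and none after adjustment. Without vector replicate 3 of day 21 the vector median was 0.96 and the median difference −0.01, with 8 of 18 positive, and 16 of 18 markers rose with upACSS2.

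Genes of dividing cells rose with upACSS2 but with 1 library far above the rest. In edgeR 13 of 15 rose and none fell (median 1.42), and with a separate spread for each day 11 rose. Top2a, which untangles DNA before division, read 19.3, 17.8 and 16.7 CPM on day 9 and 34.8, 124 and 41.3 CPM on day 21 (1.90, SE 0.42; adjusted p = 0.00282). Cdk1, the kinase that starts mitosis, read 3.57, 3.12 and 3.88 CPM on day 9 and 5.10, 26.1 and 8.38 CPM on day 21 (1.90, SE 0.48). Mcm5, of the replication helicase, rose by 2.05 and Aurkb by 1.87. The sum of the 15 genes was 149, 138 and 142 CPM on day 9 and 215, 669 and 251 CPM on day 21. All 3 day 21 sums thus lay above all 3 day 9 sums, and replicate 2 was above the other 2 by more than their own distance. With vector none of the 15 rose or fell (median 0.31), and sums were 196, 168 and 195 CPM on day 9 and 231, 183 and 280 CPM on day 21. The difference between the viruses was positive for 15 of 15 genes (median 1.28), 8 at an unadjusted p under 0.05 and none after adjustment. Without upACSS2 replicate 2 of day 21 the count was 9 higher (median 0.63), 4 rose with vector, and the difference between the viruses had a median of 0.48 with none at an unadjusted p under 0.05.

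Of 9 tested neural progenitor genes 6 rose (median 1.05). Hes5, a target of Notch signalling, went from 5.42, 4.84 and 4.97 CPM to 35.3, 27.5 and 32.9 CPM (2.65, SE 0.42; adjusted p = 0.000308). Sox2, a transcription factor of stem and glial cells, rose by 1.97 (SE 0.23). With vector 8 of 9 rose (median 1.51). Without vector replicate 3 of day 21, the highest in these genes with a sum of 2565 CPM, 9 of 9 rose with upACSS2 and 7 with vector (median 1.04). Microglia markers were low, with 9 of 13 too low to test, Cx3cr1, P2ry12 and Tmem119 among them, and the 13 genes summed to between 19.95 and 24.1 CPM over the 6 upACSS2 libraries. Cd68 rose by 1.53 and Aif1 fell by 1.25. Of 10 tested vascular and fibroblast genes 3 fell, with Kdr, the VEGF receptor, lower by a log2 difference of −1.82, and their median was −0.13.

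Stress and cell death genes held 7 higher and 2 lower of 14 (median 0.50). Hmox1, an oxidative stress enzyme, read 9.66, 10.3 and 9.27 CPM on day 9 and 61.0, 50.1 and 35.0 CPM on day 21 (2.33, SE 0.26; adjusted p = 2.04e-05). Ddit3 and Trib3, of the integrated stress response, rose by 1.79 and 2.73, and Atf3 rose by 3.19. Of 12 tested interferon and antigen presentation genes 6 rose and 2 fell (median 0.72). Without upACSS2 replicate 3 of day 21 the median was 0.03. The count filter was run again there (14805 genes tested in place of 14559), so the list members tested can differ. In the sum over the list replicate 3 was the lowest upACSS2 library of day 21, at 119.8 CPM against 126.2 and 129.6 CPM. Ifit2 rose by 1.68 and B2m by 1.24, and Stat2 fell by 1.58. With vector 8 of the 12 rose and 1 fell (median 1.995), and the list summed to 119.4, 156.6 and 251.1 CPM on day 21. The difference between the viruses was negative for 11 of the 12 genes (median −0.49). Of these 12, 2 had an unadjusted p under 0.05 in edgeR and none passed after adjustment.

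**Figure D4:**
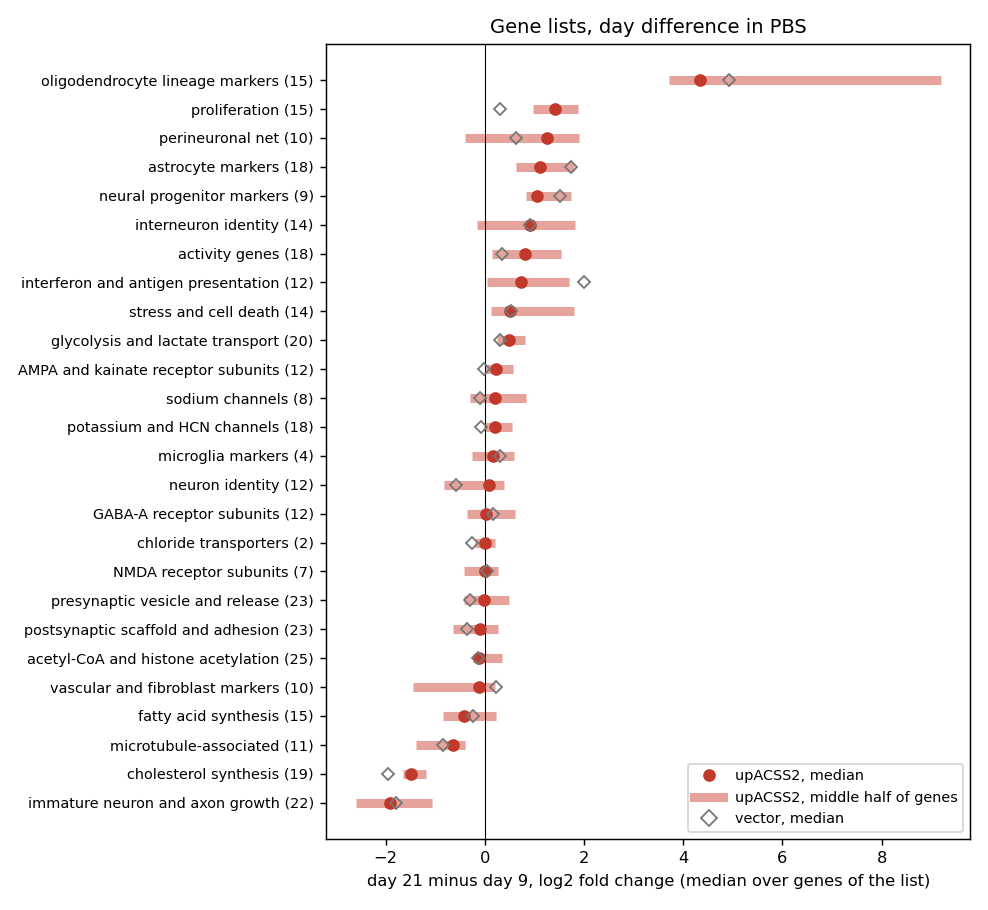
Median log2 difference between day 21 and day 9 over the tested members of each gene list (their number in brackets), for upACSS2 (red points, with bars over the interquartile range of the genes) and vector (open diamonds), with a line at 0. The oligodendrocyte list stands at 4.35 with upACSS2 and 4.93 with vector, and the young neuron list at −1.90 and −1.80.

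Over all genes, the 10 largest rises with upACSS2 that met the naming rule were again mostly of the oligodendrocyte lineage. Beside Gpr17, Enpp6, Sox10, Bcas1 and Mag they were Cldn11, Gsx1, Bmp4, Zfp488 and Fa2h. Cldn11, a tight junction protein of myelin, had 1 count over the day 9 libraries and 3510 over those of day 21 (ratio 2997, 95% counting interval 538 to 118400). Gsx1, a homeobox factor of progenitors, had none on day 9 and 3.18, 5.93 and 4.21 CPM on day 21, at least 85.7-fold higher. The 10 largest falls under the same rule, which asks for days that do not overlap, were Mgam, Chodl, Col15a1, Zim1, Cntn2, Gpr139, Lypd6, Chrna5, Ak9 and Dpysl5. Cntn2, an axonal adhesion protein, fell from 369, 394 and 354 CPM to 19.2, 24.9 and 22.0 CPM (−4.08, SE 0.12; adjusted p = 7.31e-10). Lypd6, which modulates nicotinic receptors, fell by 3.81 (SE 0.10), and the nicotinic receptor subunit gene Chrna5 also fell by 3.81 (SE 0.25). Mgam fell from 24.3, 27.3 and 27.9 CPM to 0.408, 0.512 and 0.652 CPM (−5.66, SE 0.20).

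With vector 4099 genes were higher on day 21 (28.2%) and 3707 lower (25.5%). Under total-count scaling these were 5467 and 2664 (67.2% higher instead of 52.5%). The upACSS2 and vector day differences share no library. Of the genes called with upACSS2, 5816 were called in the same direction with vector, which is 80.2% of the upACSS2 calls and 74.5% of the vector calls, and 8 were called in opposite directions. Across the 14559 genes Pearson's r between the 2 log2 differences was 0.880 and Spearman's rho 0.865, with genes that are not independent. The slope of the line fitted to both was 1.02. A further 1429 genes were called with upACSS2 and not with vector, 1279 of which had the same sign in both. None of the 1429 differed between the viruses after adjustment. The 8 genes with opposite calls were Marchf2, Anp32e, Adgrd1, Lsm4, Prelid3b, Ermp1, Nme5 and Pisd-ps3.

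**Figure D5:**
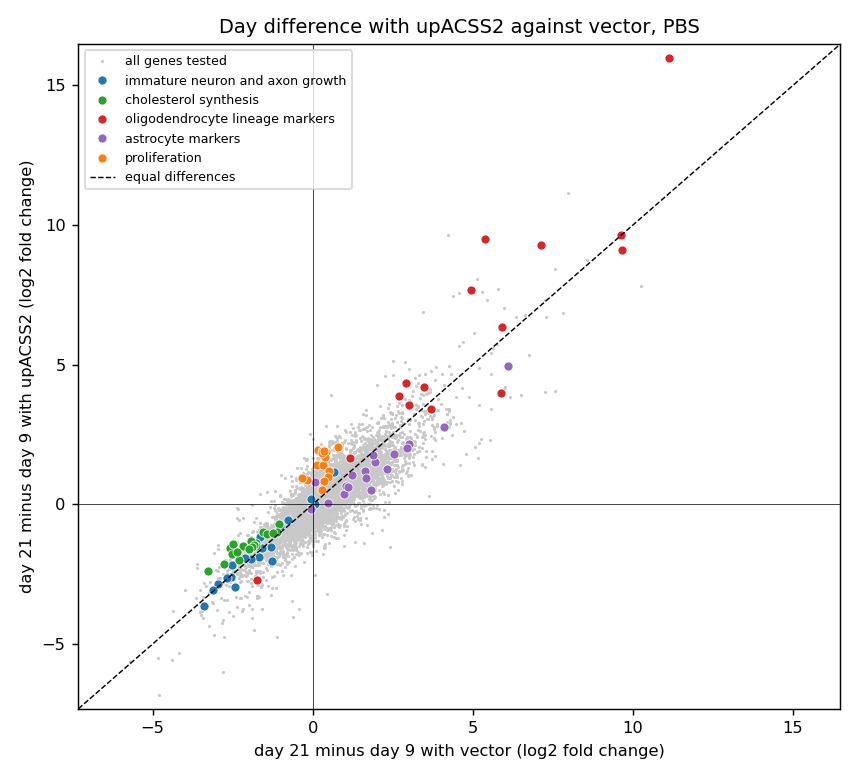
Log2 difference between day 21 and day 9 with upACSS2 (vertical axis) against the same with vector (horizontal axis), 1 point per gene tested, with 5 gene lists in colour and a dashed line of equal differences. Points lie along that line, with Pearson's r of 0.880 over 14559 genes, and the point farthest up is Gpr17, which had no counts on day 9 with upACSS2, so that its height depends on the fit.

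The difference between the 2 day differences asks directly what raised ACSS2 changes in this period. In edgeR it passed for 0 genes (0% of those tested), and 1366 genes had an unadjusted p under 0.05 (9.38%). The lowest adjusted p was 0.0668. The test with a separate spread for each day called 2 genes and DESeq2 called 63, 43 positive and 20 negative. Without vector replicate 1 of day 21, edgeR called 49. The 5 genes with the lowest p in each direction are given as values that did not pass in edgeR. Pdgfra and Sox10 were the 2 called with a separate spread for each day (adjusted p = 0.00227 and 0.00588). Vector Pdgfra read 13.5, 4.71 and 11.96 CPM on day 9 and 286, 376 and 271 CPM on day 21. With upACSS2 it was therefore below all vector libraries on day 9 and above all of them on day 21, and the difference was 2.75 (SE 0.41; edgeR adjusted p = 0.128). Most of this log2 difference lay on day 9, where upACSS2 read 2.10, 1.99 and 1.89 CPM (50, 30 and 36 counts). On day 21 upACSS2 read 421, 404 and 405 CPM, relatively closer to vector. Vector Sox10 read 1.32, 0.423 and 1.27 CPM on day 9 and 43.7, 51.8 and 36.7 CPM on day 21. The same order held, with a difference of 4.11 (edgeR adjusted p = 0.128) that rests on very low day 9 levels. In the tau libraries the same quantity was 0.86 for Pdgfra (unadjusted p = 0.0953) and 1.10 for Sox10 (unadjusted p = 0.215), and neither passed there.

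Among the other positive ones was Ntn1, the axon guidance protein netrin-1 (chromosome 11, 68209364 to 68386826). It read 6.26, 6.10 and 5.97 CPM on day 9 and 20.4, 21.4 and 20.4 CPM on day 21 with upACSS2, against 7.14, 8.15 and 7.46 CPM and 10.3, 14.2 and 12.7 CPM with vector (difference 1.05). The viruses did not overlap at either day. Polg, the mitochondrial DNA polymerase, went from 47.6, 47.7 and 47.7 CPM to 91.4, 111 and 90.5 CPM with upACSS2 and from 56.5, 52.1 and 57.1 CPM to 68.8, 77 and 67.2 CPM with vector (difference 0.67). Peg12 had a difference of 1.67. On the negative side Pisd-ps3 had the lowest adjusted p of 0.0668, at 88.9, 87.4 and 88.5 CPM on day 9 and 62.8, 59.4 and 65.8 CPM on day 21 with upACSS2. With vector it read 102, 98.4 and 99.7 CPM on day 9 and 122, 120 and 112 CPM on day 21. It is a pseudogene with a near-identical parent gene, so its counts are uncertain. Marchf2, a ubiquitin ligase, had a difference of −0.72. Its level was 37.0, 37.1 and 37.1 CPM on day 21 with upACSS2 and 56.1, 54.7 and 65.3 CPM with vector. Capn5, a calpain protease, had −0.77, Msrb1, a methionine sulfoxide reductase, −0.99 and Ctxn2 −1.66. In the tau libraries all 5 of these genes had a negative value too, −0.54 for Capn5 (unadjusted p = 0.00983), −0.48 for Ctxn2, −0.42 for Msrb1, −0.31 for Pisd-ps3 and −0.19 for Marchf2. None passed after adjustment there. Of the positive ones, the tau value was 0.56 for Peg12, 0.29 for Ntn1 and −0.05 for Polg.

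In the tau libraries, which share no sample with the PBS ones, the day difference with upACSS2 had the same direction for 6150 of the genes called in both, 85.4% of the PBS calls and 75.6% of the tau calls, and the opposite direction for 0. Pearson's r over 14395 genes was 0.929. The difference between the viruses passed for 0 genes there in edgeR, with 1308 at an unadjusted p under 0.05 and 46 called by DESeq2. Acss2 read 2060, 2143 and 1824 CPM on day 9 and 3493, 4438 and 3577 CPM on day 21 with upACSS2 in tau, again higher on day 21 in every library (log2 difference 0.93; adjusted p = 3.04e-05). The median difference between the viruses in tau was 0.46 for the genes of dividing cells, 0.33 for cholesterol synthesis and 0.23 for astrocyte markers. The first 2 had the sign seen in PBS and the astrocyte list the opposite sign.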

How the data were processed

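Gene counts of 12 PBS and 12 tau libraries were taken from the table of raw counts that the authors deposited. Per the submitters' processing notes, mm10, STAR, featureCounts, HTSeq and DESeq2 were used, and versions, roles and strand settings are not given in the sources used here. Groups follow the titles. The 12 PBS libraries were fitted together by group with edgeR 4.0.16 (R 4.3.3; TMM scaling, filterByExpr, quasi-likelihood F test, two-sided, Benjamini-Hochberg over all 14559 genes, threshold 0.05). A second test (limma 3.58.1) used log2 CPM with a prior count of 2, a moderated variance for each day and Welch-Satterthwaite degrees of freedom. DESeq2 1.42.0 was an alternative. The code was tested on simulated data.

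Named genes were Acss2 and up to 5 members of each list with the largest difference past both tests (plus known pairs). Also named were the 10 largest differences in each direction over all genes. These had to pass both tests, with a mean of at least 2 CPM, days that did not overlap and no predicted gene symbol. The 5 lowest p in each direction for the difference between viruses were added, with the same minimum and symbol rule. Members of lists described beyond these were chosen after their values were seen. The members and lists were chosen with earlier results of these data known. No library pair looked like a duplicate deposit (chi-square per gene at least 2.32 over 12 pairs). Genes overlapping or sharing reads with copies are uncertain. Some genes are not reported here.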

Additional observations from a re-analysis of the deposited data

How the results depend on the processing

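The count of genes differing between the days with upACSS2 stayed within 1.5 times its value under every alternative, from 5916 to 6956 with 1 library left out (5916 without day 9 replicate 2). It was 7148 with the replicate number as a replicate block, 8090 with the 6 libraries alone and 7457 without upACSS2 replicate 2 and vector replicate 3 of day 21 (an alternative chosen after seeing the data, which keeps upACSS2 replicate 3). With vector it ran from 6609 to 8469 with 1 library left out and was 7672 with the replicate block. Same-numbered libraries of the 2 days correlated weakly in their deviations, by 0.03 to 0.10 with upACSS2 and 0.03 to 0.06 with vector. Each day 21 library still correlated best with the day 9 library of its own number. What same-numbered libraries share is not labelled and was not tested, and the main fit held no replicate block. The difference between the viruses in PBS gave 2 genes with a separate spread for each day, 2 with voom quality weights, 63 with DESeq2, 1 with total counts, 2 with no filter, 6 with all 24 libraries in 1 fit, and 0 to 49 with 1 library left out (49 without vector day 21 replicate 1). RLE scaling, the replicate block and leaving out those 2 libraries together gave 0. In tau it gave 1 with voom quality weights, 46 with DESeq2, 1 with RLE, 2 with total counts, 1 with no filter and 0 to 40 with 1 library left out (40 without vector day 21 replicate 2). The cause was not tested. The Acss2 log2 difference ranged from 0.39 to 0.92 with 1 library left out and was 0.65 (adjusted p = 0.0553) without day 9 replicate 1. Of 116 genes named from the lists by rule for the day difference, 106 kept their call and direction in all alternatives, 36 of 1856 values lost the call, and 0 reversed. Genes among the largest rises and falls that are on no list were not checked in this way. Nor were pair members added to the rule, or members chosen after their values were seen.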
